A study of Mus musculus with 5 samples.

Results

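The 10 genes described here are the core of the Notch signalling pathway as it is read at the RNA level: the receptors Notch1, Notch2 and Notch3, the ligands Jag1, Jag2 and Dll1, the DNA-binding effector Rbpj, and the target genes Hes1, Hey1 and Heyl. They were found by matching the Ensembl gene IDs of the count table, without their version, to mouse symbols, and all 10 of 10 were present among 56691 IDs. All 10 passed the filter on low counts, among 18583 genes that did.

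Notch receptors are membrane proteins that are cut when a ligand on a neighbouring cell binds them. The freed intracellular part enters the nucleus, binds RBPJ and switches on targets such as the Hes and Hey genes, which encode repressors of transcription. In mouse epidermis the pathway is known for its part in the step by which basal cells leave the basal layer and differentiate, and in the hair follicle for the maintenance of differentiating hair lineages.

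RNA was sequenced from back-skin cells of mice at 28 days of age. The 3 GFP libraries (replicates 1, 2 and 3) came from cells sorted for GFP, whose genotype is given as "Lrig1 positive" and whose cell type is given as epidermal stem cells. The 2 bulk libraries (replicates 1 and 2) were made from the whole population without that sort, labelled basal keratinocytes of WT genotype. Lrig1 is a membrane protein that restrains EGF-family receptors and is a marker of upper hair follicle cells. The reporter construct, the gates and any pooling of animals are not stated in the labels.

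Totals ranged from 71410484 to 89080100 counts in GFP libraries and from 56829330 to 105887450 counts in bulk libraries. GFP replicate 3 stands apart: it holds 53714 counts of Xist, the RNA of the inactive X chromosome, against 0 in GFP replicates 1 and 2 and 0 and 8 in the bulk libraries, and 62 counts of the Y-linked Ddx3y against 1750 to 4462 in the others. Lrig1 itself stood at 210, 226 and 213 CPM in GFP libraries and at 163 and 155 CPM in bulk libraries. The summed level of 7 basal layer markers was 33629 to 42655 CPM in GFP libraries and 21964 to 24750 CPM in bulk libraries. None of the 7 was called in the edgeR test described below. Krt5, Krt14 and Krt15 carried most of the sum, and Trp63 and Itgb4 overlapped between the groups. The bulk libraries also held markers that a purely basal population would lack, and their sums are given beside the receptor and Heyl results.

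The stretches upstream of the 3 receptor genes are shown. For each receptor all of the GFP libraries lay below both bulk libraries, as they did for 18.5% of all tested genes. Rbpj, whose stretches are not printed, and Heyl also met this. Each stretch shown runs from 250 to 21 bases upstream of the annotated start, 5′ to 3′ on the gene's strand. It is from RefSeq on build GRCm38.p6 (the counts are on GRCm39). Capitals mark CACGNG, a class of site bound by Hes and Hey repressors, on either strand. None of the 3 held TGGGAA, the core of the RBPJ site, on either strand. Notch1 lies at chr2:26503843-26504072 on the minus strand, Notch2 at chr3:98013288-98013517 on the plus strand and Notch3 at chr17:32166911-32167140 on the minus strand.
Notch1: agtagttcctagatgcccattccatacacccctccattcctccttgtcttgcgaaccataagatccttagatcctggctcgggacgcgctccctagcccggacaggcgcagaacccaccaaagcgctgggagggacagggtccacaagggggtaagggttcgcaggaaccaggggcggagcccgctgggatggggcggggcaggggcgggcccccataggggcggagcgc
Notch2: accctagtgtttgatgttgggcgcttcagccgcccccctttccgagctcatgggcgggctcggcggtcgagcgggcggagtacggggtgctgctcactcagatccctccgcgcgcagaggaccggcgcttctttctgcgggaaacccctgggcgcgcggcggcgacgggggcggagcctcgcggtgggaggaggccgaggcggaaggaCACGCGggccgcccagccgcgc
Notch3: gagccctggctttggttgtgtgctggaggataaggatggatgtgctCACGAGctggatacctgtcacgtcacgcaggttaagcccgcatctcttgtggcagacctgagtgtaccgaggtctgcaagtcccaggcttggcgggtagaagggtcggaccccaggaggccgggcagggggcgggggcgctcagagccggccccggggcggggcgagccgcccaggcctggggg
Notch2 and Notch3 held 1 CACGNG match each and Notch1 held none.

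Of the 10 genes, 7 had an entry in the promoter table, and Hes1, Hey1 and Heyl had none. Rbpj was the only one of the 7 with TGGGAA, with 2 sites in all upstream of its 2 listed starts, whose stretches overlap. Jag1 held 2 CACGNG matches, Dll1 held 1 at each of its 2 starts, and Jag2 held none. Of 32851 mouse promoter stretches of the same length, 20.04% held TGGGAA and 21.5% held CACGNG. A match is a description of the letters and not a bound site.

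Levels are CPM, counts scaled to a common library size with TMM factors, given as mean ± SD with n = 3 GFP and n = 2 bulk libraries. Changes are log2 fold changes of GFP over bulk with their SE, from edgeR's quasi-likelihood test with Benjamini-Hochberg adjustment over all 18583 genes and a threshold of 0.05. In that test Heyl was the one member that passed, 1 lower and 0 higher, where 5.14% of all tested genes were lower and 0.145% were higher. At an unadjusted p under 0.05 there were 3 members, Notch2, Notch3 and Heyl, where 15.8% of all genes were. The median log2 change of the 10 genes was -0.34, beside 0.05 over all genes tested. In these populations fewer cells of a type and less RNA per cell cannot be told apart.

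The bulk and GFP replicates 1 share a title number, as do the bulk and GFP replicates 2, and each number is treated as 1 animal, although no label says so. The genotype labels differ within each shared number, WT for bulk and "Lrig1 positive" for GFP, and so differ along with the sort. A second fit with that number as a block called 5 members lower (Notch1, Notch2, Notch3, Jag1 and Heyl) and 2 higher (Jag2 and Hes1). It called 19.7% of all genes lower and 16.4% higher. It has 1 residual degree of freedom and draws no contrast from GFP replicate 3. Its p-values are those of a normal distribution for the change over its SE. They thus rest on a spread shared across genes, which a gene's own replicates hardly enter. A very small p in this fit is therefore no measure of how well a gene's replicates agree.

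A further fit added the removal of a trend of each library on gene length and GC content, centred so that the overall scaling stayed, and was chosen after seeing the data. It called 2 members lower (Notch2 and Heyl) and 2 higher (Jag2 and Dll1), against 15.3% of 18107 genes lower and 15.6% higher. The same fit with the trend left uncentred, as first planned, moved the median of all genes to 0.24 and called 1 member lower (Heyl) and 3 higher (Jag2, Dll1 and Hes1), against 11.2% of genes lower and 31.2% higher. Below, the trend is the centred one unless it is called uncentred. The ratio of libraries varied with transcript length, with a Spearman rho across genes from -0.328 for GFP replicate 1 over bulk replicate 2 to 0.0562 for GFP replicate 3 over bulk replicate 1. The receptor transcripts are long, at 9488 bases for Notch1, 10500 for Notch2 and 8016 for Notch3, against 1468 for Hes1.

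**Figure D1:**
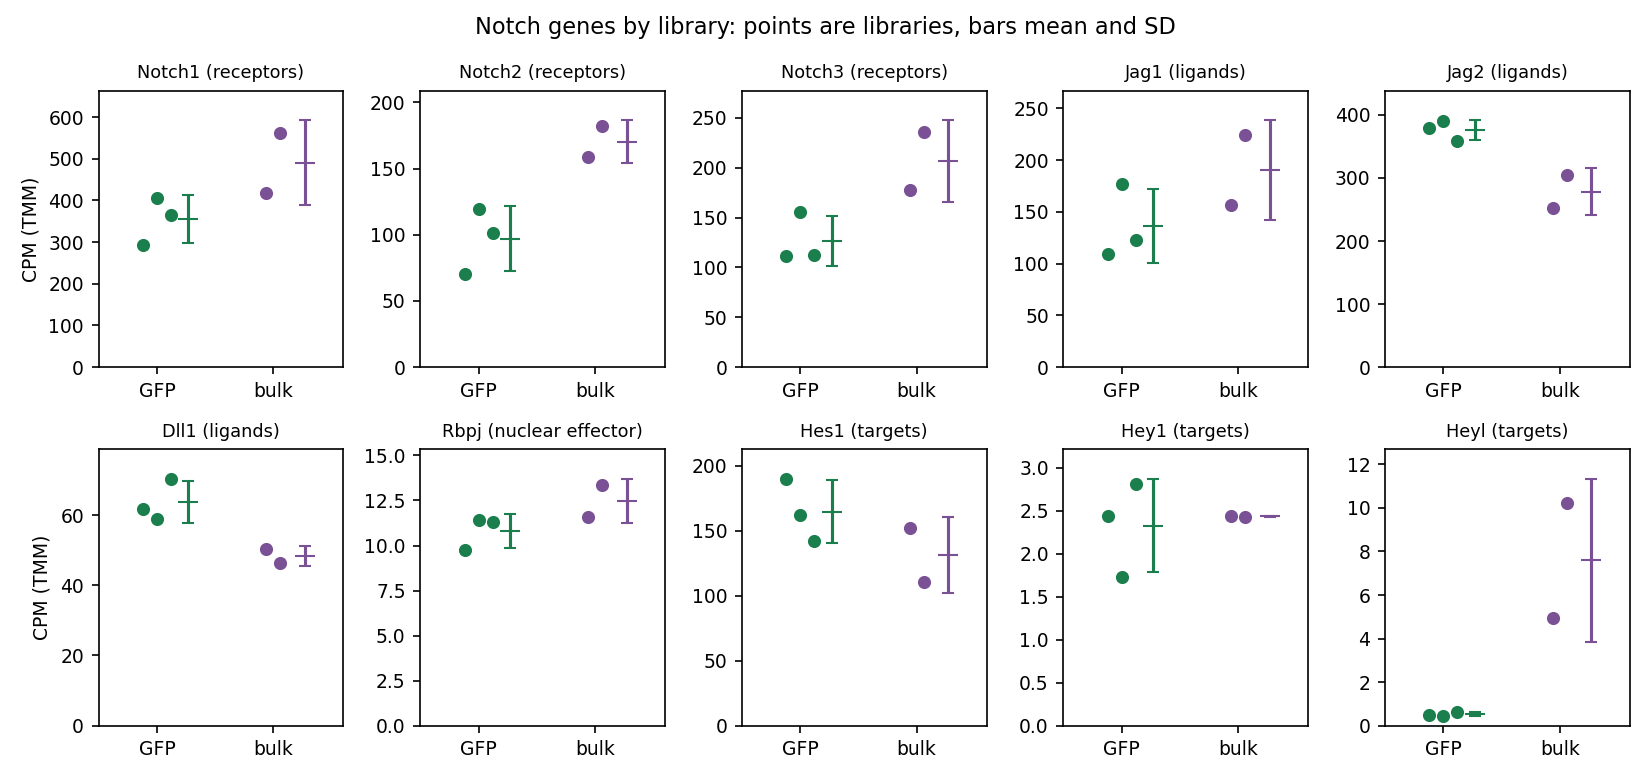
CPM of each of the 10 genes (vertical axes, linear, starting at 0), one panel per gene. Points are libraries, 3 GFP on the left and 2 bulk on the right, with bars at the mean and SD. Heyl lies at 0.437 to 0.643 CPM in GFP libraries and at 4.95 and 10.2 CPM in bulk libraries, and Hey1, Hes1 and Jag1 overlap between the groups.

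Among the receptors, Notch1, the main receptor described in mouse epidermis, stood at 292, 406 and 365 CPM in GFP libraries and at 418 and 563 CPM in bulk libraries. GFP replicate 2 came within a few percent of bulk replicate 1, so the groups were separate but close. The means were 355 ± 57.8 CPM in GFP and 491 ± 102 CPM in bulk, a log2 change of -0.47 ± 0.24 that did not pass (adjusted p = 0.414). With the replicate block the change was -0.49 ± 0.15 (adjusted p = 0.0043, edgeR). Once the trend on length and GC was removed as well it was -0.03 ± 0.13 (adjusted p = 0.886), so this call is lost. With the uncentred trend removed the direction turned, at 0.18 ± 0.17 without the block and 0.23 ± 0.14 with it, neither called (adjusted p = 0.509 and 0.196).

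Notch2, a receptor with the same layout of extracellular repeats, stood at 70.5, 119 and 101 CPM in GFP libraries and at 159 and 182 CPM in bulk libraries. All GFP libraries lay below both bulk libraries, GFP replicate 1 the farthest. The log2 change was -0.81 ± 0.24, with a 95% interval of -1.38 to -0.25, and did not pass (adjusted p = 0.130). The blocked fit gave -0.89 ± 0.14 (adjusted p = 1.05e-08, edgeR), and the blocked fit with the trend removed gave -0.38 ± 0.14 (adjusted p = 0.0374). With the block and the uncentred trend removed it was not called (-0.18 ± 0.15, adjusted p = 0.345). Without a filter on low counts Notch2 also passed in the unblocked test (adjusted p = 0.0144).

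Notch3, a receptor known from suprabasal keratinocytes and vessel walls, stood at 111, 156 and 113 CPM in GFP libraries and at 178 and 236 CPM in bulk libraries. The groups did not overlap. The log2 change was -0.71 ± 0.23 and did not pass (adjusted p = 0.170). It was -0.64 ± 0.14 with the block (adjusted p = 6.78e-05, edgeR) and -0.26 ± 0.12 with the block and the trend removed (adjusted p = 0.127). With the block and the uncentred trend removed it was 0.021 ± 0.13 (adjusted p = 0.909).

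Over the 10 genes, 5 had every GFP library below both bulk libraries (the 3 receptors, Rbpj and Heyl), where 18.5% of all tested genes did. Jag2 and Dll1, 2 of the 10, had every GFP library above both bulk libraries, where 14.6% did. The receptors shared their pool in the same order in all 5 libraries. Notch1 supplied 60.0%, 58.2% and 61.8% of the summed receptor CPM per kb in GFP libraries, and 54.2% and 56.0% in bulk libraries. The share of Notch2 was 13.1%, 15.4% and 15.5% in GFP libraries and 18.6% and 16.3% in bulk libraries. The share of Notch3 was 22.6% to 26.99% in GFP libraries and 27.2% and 27.7% in bulk libraries. These shares were not tested and rest on the longest transcript of each gene. With the median transcript length the share of Notch2 was 1.28% to 1.55% in GFP libraries and 1.68% and 1.96% in bulk libraries, and that of Notch1 was 80.9% to 83.8% in GFP libraries and 79.0% and 79.5% in bulk libraries.

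Markers of suprabasal keratinocytes were also lower in GFP libraries. Their summed level over 10 genes was 8951 to 12408 CPM in GFP libraries and 22565 and 17660 CPM in bulk replicates 1 and 2. From bulk replicate 1 to bulk replicate 2 this sum fell and each receptor rose. That is 1 library against 1 other, from which nothing about these cells can be concluded. The ratio of these libraries also varied with transcript length (Spearman rho -0.228 for bulk replicate 1 over bulk replicate 2). Of the 10 markers, 5 passed the edgeR test, all lower in GFP. No suprabasal marker was at 0 in all GFP libraries, with Krt10, a keratin of the first differentiating layers, at 4724 to 7176 CPM there. The part of these cells in the receptor levels was not tested.

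Among the ligands, Jag2 was the most abundant per kb and stood at 379, 390 and 359 CPM in GFP libraries, against 252 and 305 CPM in bulk libraries. Every GFP library was above both bulk libraries. Its mean was 376 ± 15.7 CPM in GFP and 278 ± 37.6 CPM in bulk, a log2 change of 0.43 ± 0.21 that did not pass (adjusted p = 0.365). The blocked fit called it higher, at 0.47 ± 0.15 (adjusted p = 0.00585, edgeR), and so did the blocked fit with the trend removed, at 0.66 ± 0.13 (adjusted p = 7.17e-04).

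Dll1, a Delta-type ligand described on clusters of epidermal stem cells in human skin, stood at 61.8, 59.0 and 70.4 CPM in GFP libraries and at 50.3 and 46.2 CPM in bulk libraries. Its groups did not overlap either. The log2 change of 0.40 ± 0.18 did not pass (adjusted p = 0.337), nor did 0.32 ± 0.14 with the block (adjusted p = 0.0627, edgeR). With the block and the trend removed it was 0.42 ± 0.12 (adjusted p = 0.0120).

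Jag1, the other Jagged ligand, stood at 110, 177 and 123 CPM in GFP libraries and at 156 and 224 CPM in bulk libraries. GFP replicate 2 lay above bulk replicate 1, so the groups overlapped. The log2 change was -0.48 ± 0.27 and did not pass (adjusted p = 0.452). It was -0.43 ± 0.14 with the block (adjusted p = 0.0106, edgeR) and -0.19 ± 0.12 with the trend also removed (adjusted p = 0.265).

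The balance of the 2 Jagged ligands can be read within each library. The count of Jag2 over that of Jag1 was 3.45, 2.20 and 2.92 in GFP libraries and 1.61 and 1.36 in bulk libraries. Every GFP library had the higher ratio. The count of Dll1 over that of Jag1 was 0.564, 0.333 and 0.572 in GFP libraries and 0.322 and 0.206 in bulk libraries, separate by a narrow margin. The count of Jag2 over that of Dll1 was 6.13, 6.61 and 5.10 in GFP libraries and 4.999 and 6.60 in bulk libraries, and overlapped. Per kb, Jag1 made up 17.6%, 25.4% and 19.6% of the 3 ligands in GFP libraries and 30.5% and 35.5% in bulk libraries. With the median transcript length the share of Jag1 was 4.94% to 7.61% in GFP libraries and 9.76% and 11.8% in bulk libraries.

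Set against the receptor, the count of Jag2 over that of Notch1 was 1.29, 0.960 and 0.984 in GFP libraries and 0.601 and 0.541 in bulk libraries. The lowest GFP ratio exceeded the highest bulk ratio. This had to be so, since every GFP library lay above both bulk libraries for Jag2 and below both for Notch1. It is no further result. These ratios are descriptions of the 5 libraries with no test, and a ratio shows that the counts of 2 genes differed unequally, not which of them changed. The ratios are not corrected for the dependence of the libraries on transcript length. The longest transcripts differ, at 5106 bases for Jag2 and 9488 for Notch1.

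**Figure D2:**
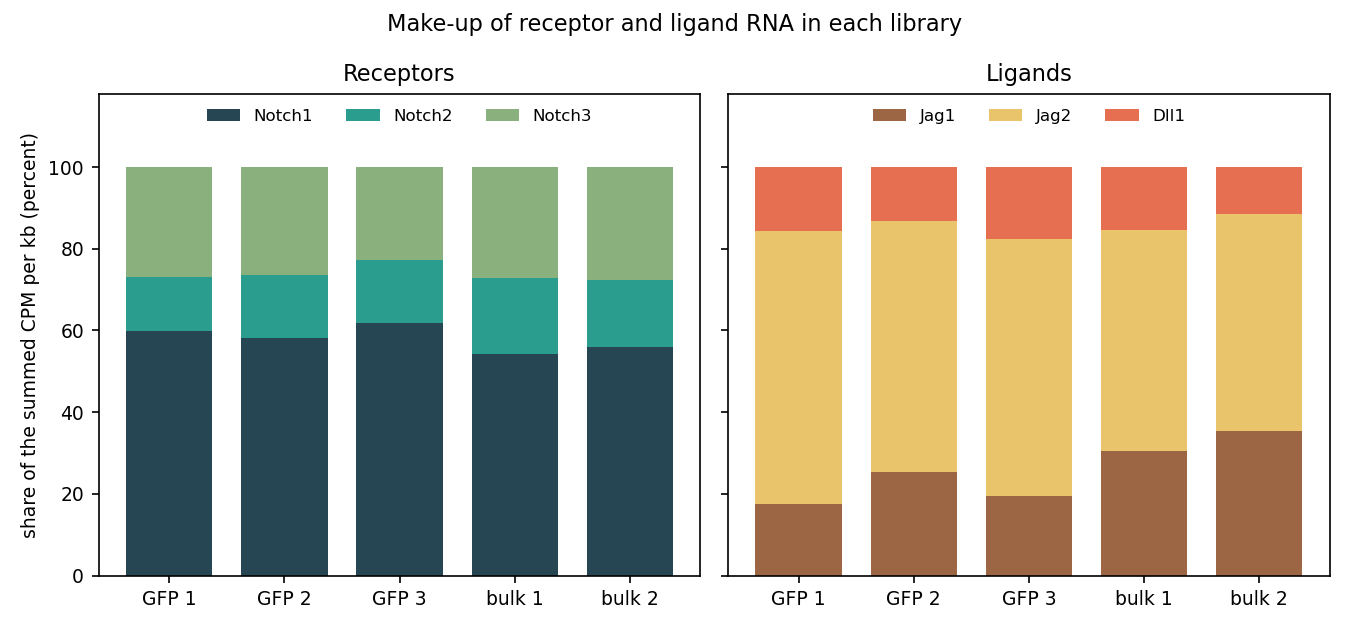
Share of the summed CPM per kb (vertical axis, percent) supplied by each receptor (left) and each ligand (right), one bar per library, GFP replicates 1 to 3 and then bulk replicates 1 and 2. Jag2 holds 61.4% to 66.8% of the ligand sum in GFP libraries and 53.0% and 54.0% in bulk libraries, while Jag1 holds 17.6% to 25.4% in GFP libraries and 30.5% and 35.5% in bulk libraries, all per kb of the longest transcript.

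Rbpj, the protein through which all of the receptors reach DNA, stood at 9.73, 11.4 and 11.3 CPM in GFP libraries and at 11.6 and 13.4 CPM in bulk libraries. The highest GFP library lay just under the lowest bulk library. The log2 change was -0.21 ± 0.21 with a 95% interval of -0.69 to 0.28, and it passed in none of the 3 fits (adjusted p = 0.689 without the block, 0.258 with it and 0.818 with the block and the trend removed, edgeR). With the block and the uncentred trend removed its sign turned, at 0.053 ± 0.14 (adjusted p = 0.778).

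Among the targets, Heyl gave the one difference that passed in every fit. HEYL is a repressor of the Hey family, known in mouse from smooth muscle and pericytes of vessel walls as well as from epithelia. It had 40, 29 and 60 counts in GFP libraries and 296 and 1142 counts in bulk libraries. That is 0.507, 0.437 and 0.643 CPM in GFP libraries and 4.95 and 10.2 CPM in bulk libraries. No GFP library came near a bulk library, although the 2 bulk libraries themselves differed 2.07-fold. Heyl fell by 3.84 on the log2 scale (SE 0.39, 95% interval -4.74 to -2.93, adjusted p = 0.0012, edgeR), which makes bulk 14.3-fold higher than GFP.

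The log2 change of Heyl was -3.91 ± 0.25 with the block (adjusted p = 3.96e-53, edgeR) and -3.73 ± 0.26 with the trend also removed (adjusted p = 4.08e-10). The first of these p-values rests on the spread shared across genes and not on the replicates of Heyl. Within the pairs, the log2 change was -3.29 for replicate 1 and -4.55 for replicate 2. Without GFP replicate 3, the library that stands apart, it was -4.01 (adjusted p = 0.00265). On leaving out each library in turn it ran from -4.27 without bulk replicate 1 to -3.23 without bulk replicate 2. The last makes bulk 9.37-fold higher, against 14.3-fold with all libraries.

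Many markers of other cell types were also lower in GFP libraries, suprabasal ones above among them. Of 11 hair matrix and inner root sheath markers, 10 were lower in GFP. Their summed level was 214 to 323 CPM in GFP libraries and 1522 and 2685 CPM in bulk replicates 1 and 2. Gata3 alone, a factor that other skin cells also express, supplied 161 to 259 CPM of the GFP sums, and the other 10 markers summed to 50.5 to 65.1 CPM in GFP libraries and to 1269 and 2400 CPM in bulk libraries. Of 8 melanocyte markers 7 were lower (10.7 to 17.4 CPM in GFP, 289 and 121 CPM in bulk replicates 1 and 2). Of 8 Langerhans and myeloid markers 8 were lower (19.4 to 46.5 CPM in GFP, 301 and 304 CPM in bulk replicates 1 and 2). Of 7 T cell markers 6 were lower (25.96 to 48.2 CPM in GFP, 148 and 107 CPM in bulk replicates 1 and 2). Trbc2 alone supplied 15.2 to 34.3 CPM of the GFP sums. It overlapped between the groups, at 41.1 and 18.5 CPM in bulk replicates 1 and 2. Of 6 fibroblast markers 2 were lower, and their sum was 168, 36.1 and 9.56 CPM in GFP libraries and 196 and 153 CPM in bulk libraries, with GFP replicate 1 apart from the other GFP libraries. None of the markers on these 5 lists was at 0 in all GFP libraries. From bulk replicate 1 to bulk replicate 2 Heyl rose, and the hair matrix and inner root sheath sum rose too. The melanocyte, T cell, fibroblast and suprabasal sums fell between those libraries, and the Langerhans and myeloid sum hardly changed. Single markers did not all follow their sums. The melanocyte marker Kit rose from 7.82 to 10.2 CPM and the fibroblast marker Pdgfra from 0.886 to 2.32 CPM. A comparison of 1 library with 1 other cannot tie Heyl to any cell type. The part of these cell types in the Heyl result was not tested.

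Heyl is known from vessel wall cells. The 7 endothelial markers summed to 1.14 to 1.84 CPM in GFP libraries and to 3.39 and 4.50 CPM in bulk libraries, with 2 of 6 tested markers lower. The 8 mural markers summed to 26.7 to 33.0 CPM in GFP libraries and to 25.5 and 34.0 CPM in bulk libraries, with none of 5 tested markers called. Cspg4 (19.2 to 27.7 CPM over the 5 libraries) and Acta2 (2.27 to 9.78 CPM) carried nearly all of that sum. The other 6 mural markers, split off after their values were seen, summed to 0.570, 0.362 and 0.418 CPM in GFP libraries and to 1.14 and 1.498 CPM in bulk libraries. That sum was below both bulk libraries in every GFP library. Among the 6, Rgs5 (0.0302 to 0.129 CPM in GFP, 0.0836 and 0.153 CPM in bulk) overlapped between the groups. So did Myh11 (0.0905 to 0.279 CPM in GFP, 0.568 and 0.206 CPM in bulk). The mural markers Kcnj8 and Abcc9 had no count in any GFP library or in bulk replicate 1, and 4 and 3 counts in bulk replicate 2. Pdgfrb, a receptor of mural cells and fibroblasts, stood at 0.152, 0.226 and 0.0643 CPM in GFP libraries and at 0.451 and 0.933 CPM in bulk libraries. The part of vessel wall cells in the Heyl result was not tested.

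The genes whose profile over the 5 libraries lay nearest to Heyl, by Euclidean distance of log2 CPM centred on each gene's mean, were Cubn (0.215), Il9r (0.234), Muc20 (0.432), Mmrn1 (0.511) and Cmklr1 (0.523). The first 4 were under 1 CPM in every library, so their profiles rest on few counts. Cmklr1, which encodes a chemerin receptor, stood at 0.139, 0.0905 and 0.107 CPM in GFP libraries and at 0.986 and 2.26 CPM in bulk libraries.

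Hey1, a repressor closely related to HEYL, stood at 2.44, 1.73 and 2.81 CPM in GFP libraries and at 2.44 and 2.43 CPM in bulk libraries. The bulk libraries lay within the range of the GFP libraries. The log2 change was -0.06 ± 0.32 (95% interval -0.81 to 0.68, adjusted p = 0.946, edgeR). Its sign turned with the uncentred trend removed (0.13) and without GFP replicate 2 (0.11). The count of Heyl over that of Hey1 was 0.207, 0.252 and 0.229 in GFP libraries and 2.03 and 4.21 in bulk libraries, so Heyl had fewer counts than Hey1 in each GFP library and more in both bulk libraries.

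Hes1, a repressor that is a widely used readout of Notch activity and is also driven by other pathways, stood at 190, 162 and 142 CPM in GFP libraries and at 152 and 111 CPM in bulk libraries. GFP replicate 3 lay below bulk replicate 1, so the groups overlapped. The log2 change was 0.33 ± 0.23 and did not pass (adjusted p = 0.553). It was 0.44 ± 0.14 with the block (adjusted p = 0.00891, edgeR) and 0.22 ± 0.13 with the trend also removed (adjusted p = 0.194). With the block and the uncentred trend removed it was 0.42 ± 0.13 and was called (adjusted p = 0.0171). The count of Hes1 over that of Heyl was 376, 371 and 221 in GFP libraries and 30.8 and 10.8 in bulk libraries.

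**Figure D3:**
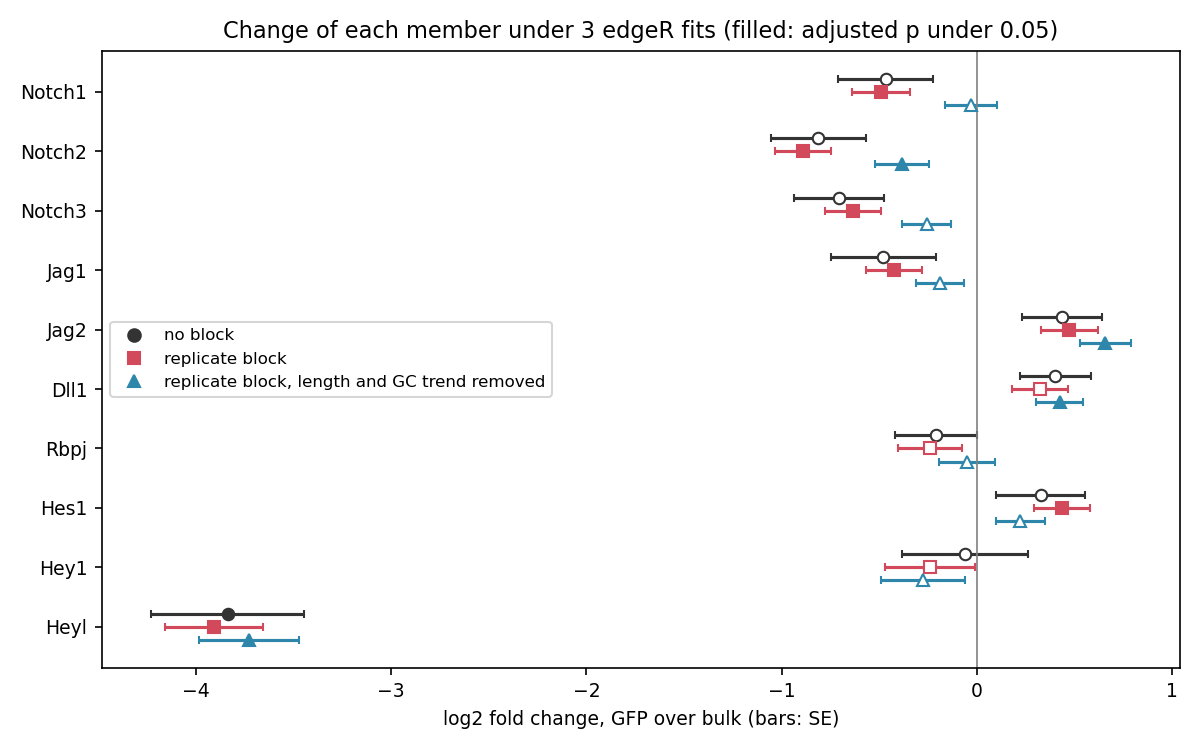
Log2 fold change of GFP over bulk (horizontal axis) with its SE for each gene under 3 edgeR fits: no block (circles), replicate block (squares) and replicate block with the centred length and GC trend removed (triangles). Filled symbols have an adjusted p under 0.05. Heyl lies near -3.8 in all 3 fits, while the receptors move toward 0 when the trend is removed and Jag2 stays at 0.43 to 0.66.

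Levels of different genes were compared per kb of the longest annotated transcript. In GFP libraries the order was Hes1 (112 ± 16.5 CPM per kb), Jag2 (73.6 ± 3.08), Notch1 (37.4 ± 6.09), Jag1 (24.3 ± 6.37), Dll1 (17.8 ± 1.65), Notch3 (15.8 ± 3.14), Notch2 (9.23 ± 2.34), Rbpj (1.97 ± 0.170), Hey1 (0.961 ± 0.225) and Heyl (0.117 ± 0.0230). The neighbours whose libraries overlapped were Notch1 and Jag1, Jag1 and Dll1, and Dll1 and Notch3. In bulk libraries Hes1 (89.6 ± 19.9 CPM per kb) and Jag2 (54.5 ± 7.36) again led, Notch3 (25.8 ± 5.12) and Notch2 (16.2 ± 1.55) stood above Dll1 (13.5 ± 0.813), and Heyl (1.67 ± 0.826) stood above Hey1 (1.01 ± 0.00276). There the overlapping neighbours were Jag2 and Notch1, Jag1 and Notch3, and Rbpj and Heyl. With the median transcript length in place of the longest, Notch1 (873 CPM per kb) led in GFP libraries before Jag2 (509) and Hes1 (311), and Notch3 (177) and Dll1 (86.3) stood above Jag1 (38.6), so the order depends on the transcript chosen.

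Annotated genes overlap the exons of some members, and whether counting used strand is not stated in the labels. The largest of these on Notch1, the antisense gene 0610009E02Rik, had 17 to 30 counts in each library. Gm42820 on Notch2 had 3 to 34 counts, and the antisense Gm17276 on Notch3 had 1 to 28 counts. The receptors themselves had 5565 to 62724 counts per library.

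The other genes of the pathway were taken from a list of 58 genes, of which 57 passed the filter and Dlk1, a non-canonical ligand, did not. The list counts Kyat1 among the nuclear repressors, although it encodes a kynurenine aminotransferase and is no known part of the pathway. In the edgeR test 3 of the 57 were lower (Hes2, Dtx1 and Neurl3) and 1 was higher (Dlk2), where 5.14% of all tested genes were lower and 0.145% higher, and the median log2 change of the 57 was -0.07. With the block 10 of 57 were lower and 6 higher (19.7% and 16.4% of all genes), and with the block and the trend removed 6 were lower and 10 higher (15.3% and 15.6% of all genes). The blocked counts are near or below those shares.

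Of the 7 other Hes, Hey and feedback genes, 2 were called lower in the unblocked test. With the block 3 were called lower, and 3 with the trend also removed. Hes2, a repressor of the Hes family, stood at 0.0633, 0.0603 and 0.0750 CPM in GFP libraries and at 2.79 and 3.84 CPM in bulk libraries, and fell by 5.61 on the log2 scale (SE 0.41, adjusted p = 3.01e-04, edgeR). Dtx1, a Deltex protein that binds the intracellular part of Notch, stood at 0.114, 0.241 and 0.150 CPM in GFP libraries and at 0.869 and 0.978 CPM in bulk libraries, a log2 change of -2.46 ± 0.47 (adjusted p = 0.0220). This call was lost without GFP replicate 1 (adjusted p = 0.0677), bulk replicate 1 (0.110) or bulk replicate 2 (0.173). Hey2 stood at 0.177, 0.136 and 0.161 CPM in GFP libraries and at 0.468 and 0.440 CPM in bulk libraries. Its log2 change of -1.51 ± 0.46 did not pass (adjusted p = 0.135, edgeR). It was called lower with the block (-1.53, adjusted p = 0.0123) and with the trend also removed (-1.64, adjusted p = 0.0177).

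The 5 genes listed under ligand endocytosis held 1 called gene, Neurl3, a ubiquitin ligase of the Neuralized family. Its place there rests on the list, and a part in ligand uptake was not tested. Neurl3 stood at 3.38, 3.15 and 3.46 CPM in GFP libraries and at 16.97 and 18.6 CPM in bulk libraries. It fell by 2.41 on the log2 scale (SE 0.21, adjusted p = 6.38e-04, edgeR). Mib1, the ubiquitin ligase through which ligands are taken up, overlapped between the groups, at 38.7 to 63.8 CPM in GFP libraries and 60.5 and 95.2 CPM in bulk libraries (log2 change -0.60 ± 0.27, adjusted p = 0.339). It was lower with the block (log2 change -0.77, adjusted p = 1.03e-06) and was not called once the trend was also removed (-0.25, adjusted p = 0.129).

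Among the other receptors and ligands 1 of 4 tested genes passed. Dlk2, a membrane protein related to the Delta ligands, stood at 56.7, 40.5 and 45.9 CPM in GFP libraries and at 26.4 and 23.0 CPM in bulk libraries, a log2 change of 0.95 ± 0.21 (adjusted p = 0.0441, edgeR). Without GFP replicate 1 (adjusted p = 0.117), GFP replicate 2 (0.0645), bulk replicate 1 (0.175) or bulk replicate 2 (0.416) it did not pass, while the blocked fit gave 0.96 ± 0.15 (adjusted p = 2.64e-09). Dll4, the Delta ligand of vessels, was under 0.3 CPM in every library (log2 change -1.92 ± 0.76, adjusted p = 0.266).

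The 5 genes that add sugars to the receptors gave no call in the unblocked test. Lfng, a Fringe enzyme that tunes which ligand a receptor answers to, stood at 43.8, 28.4 and 32.6 CPM in GFP libraries and at 27.03 and 21.4 CPM in bulk libraries. Its log2 change was 0.53 ± 0.24 (adjusted p = 0.350, edgeR). It was higher in GFP with the block (0.55 ± 0.15, adjusted p = 0.00144) and with the trend also removed (0.52 ± 0.13, adjusted p = 0.00396). Poglut1, which adds glucose, gave 0.22 ± 0.18 (adjusted p = 0.623).

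The 10 receptor cleavage genes had log2 changes between -0.32 and 0.35, and none was called in the unblocked test. Those with the smallest p were the presenilin Psen2 (-0.32 ± 0.23, adjusted p = 0.561, edgeR) and Aph1c, a subunit of the same gamma-secretase complex (0.35 ± 0.29, adjusted p = 0.617). With the block, the sheddases Adam10 (-0.41, adjusted p = 0.0143) and Adam17 (-0.57, adjusted p = 4.84e-04) were lower and Psenen (0.50, adjusted p = 0.00388) was higher. With the trend also removed Adam17 was still lower (-0.49, adjusted p = 0.00406), Adam10 (-0.31, adjusted p = 0.0550) and Psenen (0.18, adjusted p = 0.309) were not called, and the convertase Furin was higher (0.56, adjusted p = 0.00247).

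The 8 receptor turnover genes, 7 nuclear partners and 11 genes listed as nuclear repressors (Kyat1 among them) likewise gave no call in the edgeR test without block or trend removal. Numbl, related to the Notch antagonist Numb, and Dtx2, another Deltex protein, had log2 changes of 0.44 ± 0.21 (adjusted p = 0.359, edgeR) and 0.38 ± 0.19 (adjusted p = 0.394). Dtx2 was higher with the block (0.46, adjusted p = 0.00496), and both were higher with the trend also removed (Numbl 0.76, adjusted p = 2.92e-04, and Dtx2 0.70, adjusted p = 1.67e-04). With the uncentred trend removed and no block, Numbl (adjusted p = 0.0291), Dtx2 (0.0351) and the corepressor Tle1 (0.0450) were higher. The coactivator Ep300 gave -0.44 ± 0.22 (adjusted p = 0.389), and Snw1, which binds the nuclear complex, gave 0.19 ± 0.20 (adjusted p = 0.718). Ep300 was lower with the block (-0.53, adjusted p = 9.50e-04) but not with the trend also removed (-0.05, adjusted p = 0.799), and Snw1 was called higher with the block and the trend removed (0.45, adjusted p = 0.00775) but not with the block alone (0.30, adjusted p = 0.0993). Spen, a corepressor bound by RBPJ, stood at 67.1, 93.9 and 83.5 CPM in GFP libraries and at 118.1 and 163 CPM in bulk libraries (log2 change -0.78 ± 0.23, adjusted p = 0.112). It was called lower by the DESeq2 Wald test and without a filter on low counts. It was lower with the block (-0.80, adjusted p = 2.43e-07) and not called with the trend also removed (-0.25, adjusted p = 0.124). Bend6, described as an RBPJ corepressor in mouse brain, was under 0.5 CPM in every library (log2 change -1.69 ± 0.64, adjusted p = 0.240), and was called lower with the block (adjusted p = 0.0209) and with the trend also removed (0.0285).

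**Figure D4:**
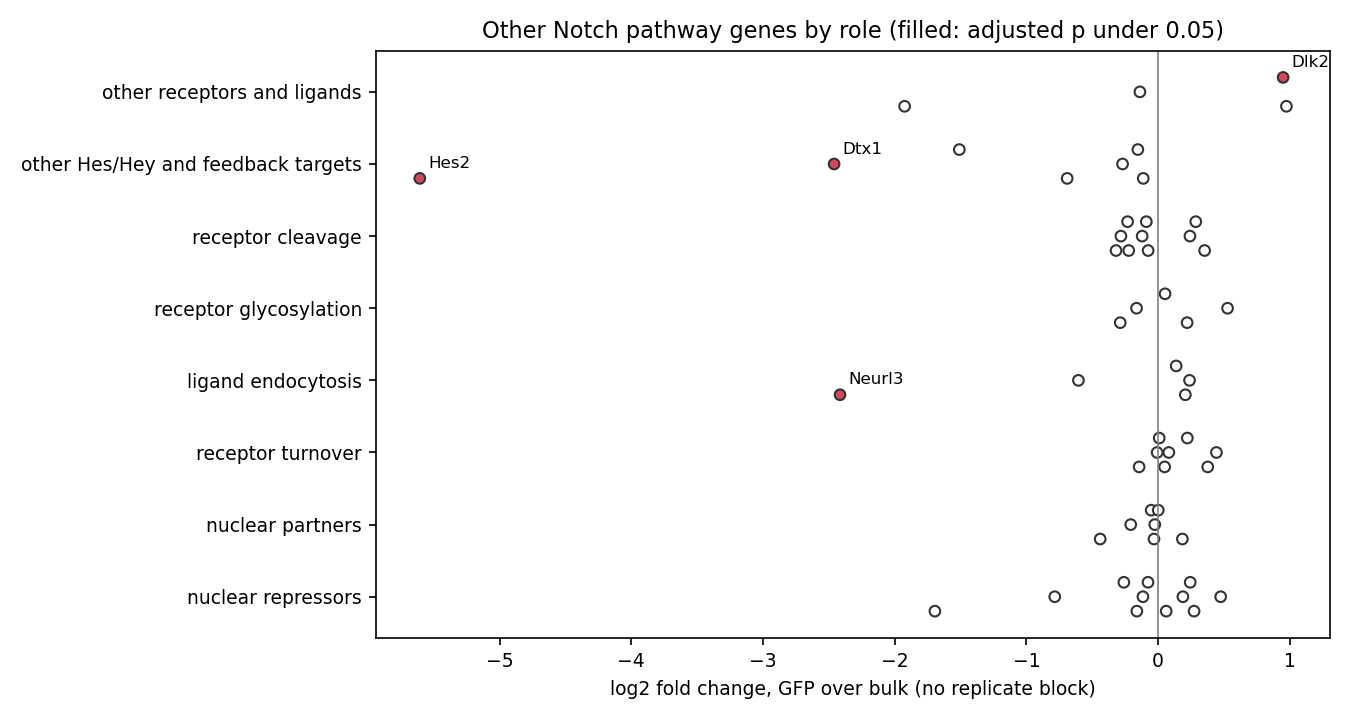
Log2 fold change of GFP over bulk without the replicate block (horizontal axis) for the 57 tested genes of the wider pathway, one line per role. Points are genes and filled points have an adjusted p under 0.05. Hes2, Dtx1 and Neurl3 lie left of 0 and Dlk2 right of it, and the 10 receptor cleavage genes all lie between -0.32 and 0.35.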

How the data were processed

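The authors deposited raw counts, 1 column per library, keyed by Ensembl gene ID and not normalized. STAR and GRCm39 are named per the submitters' processing notes, and neither versions nor the counting tool, annotation or strand setting could be taken from the labels. Symbols and transcript lengths came from GENCODE M21 (52073 of 56691 IDs matched) and promoters from RefSeq.

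edgeR 4.0.16 in R 4.3.3 was used with TMM scaling, filterByExpr (minimum count 10, minimum total 15), a group term and the two-sided quasi-likelihood test with Benjamini-Hochberg adjustment, which leaves 3 residual degrees of freedom. The steps were first tested on simulated data. The deposited counts carry no molecular identifiers, and no label says that replicates are separate animals, so p-values may measure technical spread.

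The replicate block used the title numbers. Across genes the difference of GFP replicates 1 and 2 correlated with that of bulk replicates 1 and 2 (Pearson r = 0.474, genes not being replicates). The loess trend (span 0.3) covered 97.4% of tested genes. DESeq2 1.42.0, limma-voom (limma 3.58.1), other scalings and filters, and leaving out each library were the alternatives.

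The members and lists were chosen with earlier results of these data known. Named genes are the members, the called pathway genes, the 2 with the smallest p per role and the 5 profiles nearest to a called member. Hey2, Adam10, Adam17, Psenen, Furin, Tle1, Gata3, Trbc2, Kit, Pdgfra and the basal and mural markers were named after their values were seen.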

Additional observations from a re-analysis of the deposited data

How the results depend on the processing

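Heyl was called lower under all 16 alternatives (log2 change -4.27 to -3.23, adjusted p at most 0.00991). Members called lower numbered 2 without a filter on low counts, 5 with the replicate block and 2 with the block and the centred trend removed. Members called higher numbered 2 with the block, 2 with the uncentred length and GC trend removed, 3 with the block and that trend removed, and 2 with the block and the centred trend. Leaving out each library left 1 lower and 0 higher.

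Some directions turned. Notch1 was 0.18 with the uncentred trend removed and 0.23 with the block as well, and Hey1 was 0.13 with the uncentred trend removed. With the block and the uncentred trend removed, Notch3 was 0.021 and Rbpj 0.053. On leaving out each library Hey1 ranged between -0.23 and 0.11, positive only without GFP replicate 2. The uncentred trend moves the median of all genes to 0.25 (0.24 with the block), against 0.05 without it, and library size alone moves it to -0.07.

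Other pathway genes called lower numbered 10 with the block and 6 with either trend added to the block, with 2 to 3 on leaving out a library. Those called higher numbered 0 with library size alone, 0 with at least 1 CPM in 2 libraries, 6 with the block, 4 with the uncentred trend, 21 with the block and the uncentred trend, 10 with the block and the centred trend, and 0 to 1 on leaving out a library.

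Over all genes, calls lower numbered 1660 without a filter, 3652 with the block, 2031 with the block and the uncentred trend, 2768 with the block and the centred trend, and 479 to 1109 on leaving out a library. Calls higher numbered 10 with library size alone, 188 by the DESeq2 Wald test, 258 without a filter, 3040 with the block, 365 and 67 with the uncentred and the centred trend, 5654 and 2821 with the block and those trends, and 1 to 96 on leaving out a library. Hey1 and Heyl rest on 29 to 1142 counts per library.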
